A study of Mus musculus with 32 samples.

Results

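In testes of RJ2 mice, 5906 of 15195 DMC1 sites (38.9%, 95% Clopper-Pearson interval 38.1 to 39.6%) lay on H3K4me3 of this strain but had no PRDM9 peak at their centre. They are called peak-negative sites here. They were selected on measured peaks. The central 400 bp of each RJ2 DMC1 interval had to overlap an RJ2-specific H3K4me3 interval by at least 1 bp, and to overlap neither an H3K4me3 interval common to RJ2 and B6 nor an RJ2 PRDM9 interval. The same rule with a PRDM9 interval gave 6387 peak-positive sites, with which they were compared. Both groups together are called marked sites, and 48.0% of these 12293 were peak-negative (interval 47.2 to 48.9%). Of the other RJ2 DMC1 sites, 2207 carried none of the marks (unmarked sites), 504 lay on common H3K4me3 and 191 had a PRDM9 peak only. Absence of a PRDM9 peak means that no interval was called there, not that PRDM9 was absent.

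The study mapped PRDM9, DMC1 and H3K4me3 by ChIP-seq in mouse testes. RJ2 mice (B10.MOLSGR(A)-(D17Mit58-D17Jcs11)/Bdm) have a C57BL/10 background and express PRDM9Cst, and B6 mice (C57BL/6JOlaHsd) express PRDM9Dom2. PRDM9 was assayed in whole testis at 13 days post-partum from pooled mice, DMC1 in whole testis at 5 weeks, and H3K4me3 in elutriated pachytene cells of adults, so the marks were not read in the same cells. PRDM9 lists of B6;129P2-Prdm9tm1Ymat/J mice (Prdm9KO) and of Spo11tm1M mice (Spo11KO) served only for the overlaps given last. Spo11KO mice carry the Prdm9Dom2 allele of B6. PRDM9 and DMC1 each had 2 replicates per strain and H3K4me3 had 1, but the lists are pooled. They hold interval positions on mm9 with no score and no read count, so depth behind a site is unknown and interval width is the only size measure. Every test counts sites as its units, with no value for a single mouse, intervals cover counting error only.

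PRDM9 binds DNA through an array of zinc fingers that differs between alleles, and trimethylates histone H3 on lysine 4 and lysine 36 beside its binding site. SPO11 then makes double-strand breaks there, and DMC1 coats the resected single-stranded ends before they invade the homologous chromosome. H3K4me3 also marks promoters, independently of PRDM9. A site with DMC1 and strain-specific H3K4me3 therefore carries marks known downstream of PRDM9 binding.

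A sequence shared by PRDM9 peaks was learned as a matrix of 32 columns on the peaks at peak-positive sites of odd-numbered autosomes, and read as TGNCTTGGNCTNTGNCNNTT where a base is spelled out if it holds at least 50% of its column. The score of a site is its best match on either strand of the central 400 bp, in bits, and a site has a match if it scores as high as the top 5% of B6 DMC1 sites, that is, 12.3 bits or more. The comparison used even-numbered autosomes, X and Y. The 6 peak-negative sites with the highest scores there, at most 1 per chromosome, had 22.0 to 23.6 bits, and 4 of them are printed beside the 2 highest peak-positive ones, to show what the matrix finds where no PRDM9 peak was called. Each is given 5′ to 3′ on the strand of its match, and capitals mark the 20 columns of the consensus.
Peak-negative, chr6:106746109-106746188 (+), intron of Crbn, 23.6 bits: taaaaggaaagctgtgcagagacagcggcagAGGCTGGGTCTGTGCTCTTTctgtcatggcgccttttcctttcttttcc
Peak-negative, chr16:26993297-26993376 (+), between genes, 23.1 bits: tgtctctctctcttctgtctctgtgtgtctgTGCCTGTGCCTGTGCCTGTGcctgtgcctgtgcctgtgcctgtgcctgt
Peak-negative, chrX:157477602-157477681 (-), between genes, 22.7 bits: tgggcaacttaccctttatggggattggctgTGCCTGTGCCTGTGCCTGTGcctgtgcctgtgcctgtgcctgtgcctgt
Peak-negative, chr14:85993620-85993699 (+), between genes, 22.0 bits: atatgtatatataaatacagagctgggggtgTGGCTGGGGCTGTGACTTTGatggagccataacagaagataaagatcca
Peak-positive, chr2:21631749-21631828 (+), intron of Gpr158, 25.8 bits: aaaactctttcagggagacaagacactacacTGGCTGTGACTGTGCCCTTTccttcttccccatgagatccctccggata
Peak-positive, chr4:64102418-64102497 (-), between genes, 24.3 bits: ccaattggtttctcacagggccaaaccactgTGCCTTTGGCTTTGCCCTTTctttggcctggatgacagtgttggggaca

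The peak-negative match in Crbn, the gene of the ubiquitin ligase adaptor cereblon, kept 11 of the 14 spelled-out bases, and the one on chromosome 14 kept 12. Those on chromosomes 16 and X lay in tandem copies of a unit of 6 bases. So did the other 2 of the 6, in an intron of Patl2 and Trim69 on chromosome 2 and between genes on chromosome 12. The nearest PRDM9 intervals of the 6 lay 10.6 to 136 kb away. Their H3K4me3 intervals were 499 to 1405 bp wide.

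The distance to PRDM9 peaks is partly set by the rule, which allows none at the centre, and is given as a description. The nearest RJ2 PRDM9 interval was at a median of 88.3 kb from the central 400 bp, with 5% of sites under 7.25 kb, and at unmarked sites the median was 116 kb. A PRDM9 interval lay within 100 kb of 3188 peak-negative sites (54.0%), and of 46.4% of unmarked sites. Of the peak-negative sites, 438 (7.42%) had one within 10 kb, 39 (0.660%) within 1 kb and 13 (0.220%) within 100 bp. Anywhere in the DMC1 interval, 35 sites (0.593%, interval 0.413 to 0.823%) met a PRDM9 peak, so few sites hinge on where the centre was set. On Y, 5 peak-negative sites had no PRDM9 interval on their chromosome. Just outside the PRDM9 threshold were a site on chromosome 15 near the start of Aqp5, 3 bp from a PRDM9 interval, and a site in an intron of Phf2 on chromosome 13, 8 bp away. Just inside it were a peak-positive site on chromosome 14 with 5 bp of PRDM9 interval in its centre and one in an intron of Sh3bp5l on chromosome 11 with 7 bp. At the H3K4me3 threshold, the peak-negative sites with least overlap had 1 bp (an intron of Hrasls5) and 4 bp (an intron of Zbtb8b), and the nearest unmarked sites lay 0 and 1 bp outside an interval.

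The 39 sites within 1 kb of a PRDM9 peak stood out by width. Their DMC1 intervals had a median of 2490 bp, against 1634 bp over all peak-negative sites. The widest peak-negative interval on X, 4488 bp at chrX:148301555-148306042 in an intron of the ubiquitin ligase gene Huwe1, had a PRDM9 interval 284 bp from its centre window. On autosomes the widest were chr14:111566896-111570837 between genes (3942 bp), chr18:77498083-77501752 between genes (3670 bp) and chr1:20056859-20060362 in an intron of Pkhd1, the polycystic kidney gene (3504 bp). The second of these lay 969 bp and the third 163 bp from a PRDM9 interval, while the first lay 680 kb from one.

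H3K4me3 intervals were narrower at peak-negative than at peak-positive sites. The interval at the centre had a median of 901 bp at peak-negative sites (5 to 95% of sites 446 to 1446 bp), against 1383 bp at peak-positive sites (733 to 2241 bp). Of the peak-negative sites 3896 (66.0%, interval 64.7 to 67.2%) had an interval wider than 780 bp, the median of the RJ2-specific list, against 6011 of the peak-positive sites (94.1%, 93.5 to 94.7%). The odds ratio was 0.121 (0.108 to 0.136, two-sided Fisher's exact test, p at the floor of 1e-300 used here). All 400 bp of the centre lay under H3K4me3 at 75.2% of peak-negative and 93.5% of peak-positive sites. A single interval covered 5757 peak-negative centres and a pair covered 149, and 1 peak-negative site shared its interval with another DMC1 centre. The middle of the H3K4me3 interval was off the DMC1 centre by a median of 102 bp at peak-negative and 87 bp at peak-positive sites.

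**Figure D1:**
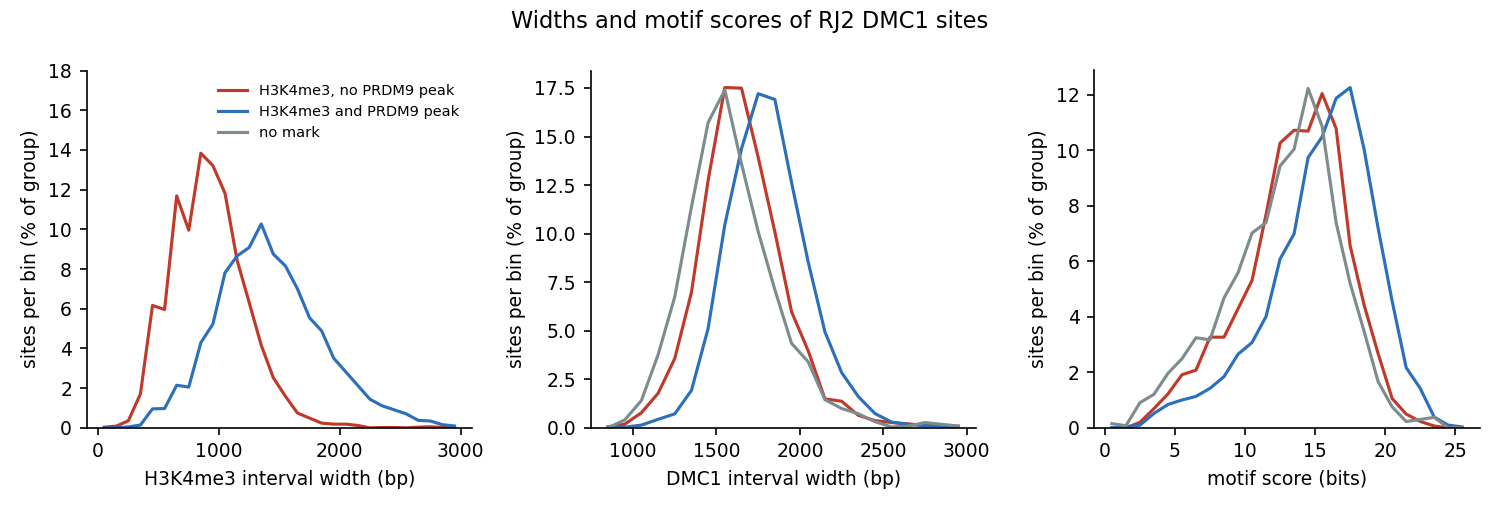
Distributions of H3K4me3 interval width (bp, bins of 100 bp), DMC1 interval width (bp, bins of 100 bp) and motif score (bits, bins of 1) for H3K4me3-marked RJ2 DMC1 sites without a PRDM9 peak, with one, and for sites with no mark (no H3K4me3 interval, so absent from the first panel), each as a percent of its group. Peak-negative sites lie to the left of peak-positive sites in each panel, with medians of 901 against 1383 bp, 1634 against 1796 bp and 13.9 against 16.0 bits.

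DMC1 intervals of peak-negative sites were narrower too, and not as narrow as those of unmarked sites. Medians were 1634 bp at peak-negative, 1796 bp at peak-positive and 1560 bp at unmarked sites. Intervals wider than the list's median of 1698 bp made up 38.9% of peak-negative (2297 of 5906, interval 37.6 to 40.1%) and 66.8% of peak-positive sites (65.6 to 67.9%, Fisher's exact adjusted p = 1.09e-211). Against unmarked sites, 29.6% of which passed that width, the odds ratio was 1.51 (1.36 to 1.68, Fisher's exact adjusted p = 1.63e-14). The groups overlapped: in the widest quintile of all DMC1 intervals, at least 1926 bp, 772 of 2619 marked sites were peak-negative (29.5%, against 48.0% of all marked sites).

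Both widths were then set against each other. On even-numbered autosomes Spearman's rho between both widths was 0.14 over 2703 peak-negative sites and 0.45 over 2973 peak-positive sites, a description in which points of each group share the same libraries. Stratified by quintiles of DMC1 width, the odds ratio for a wide H3K4me3 interval was 0.149 (0.132 to 0.168), and stratified by quintiles of H3K4me3 width that for a wide DMC1 interval was 0.606 (0.555 to 0.661). Within the peak-negative sites, the 171 in the widest quintile of H3K4me3 intervals had a median DMC1 width of 1846 bp, and the 2074 in the narrowest quintile had 1608 bp.

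**Figure D2:**
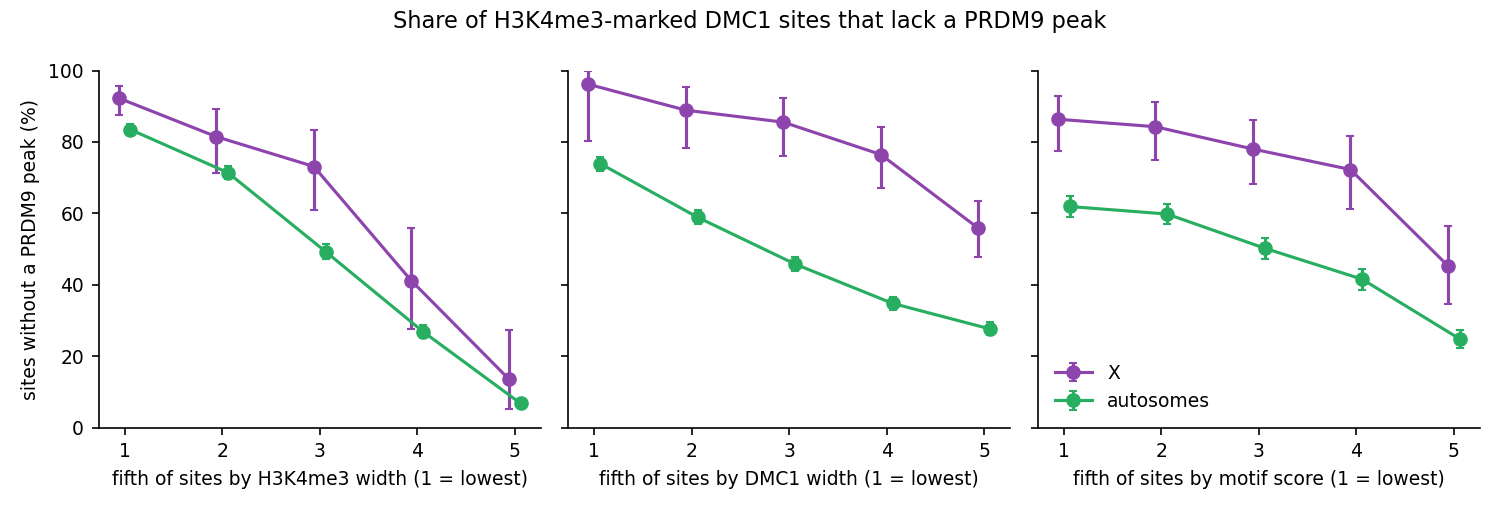
Percent of H3K4me3-marked DMC1 sites that lack a PRDM9 peak (vertical axis), in quintiles of H3K4me3 width, DMC1 width and motif score (horizontal axes, lowest to highest), on X and on autosomes, with 95% Clopper-Pearson intervals. On autosomes the share is 83.5% in the narrowest quintile of H3K4me3 intervals and 6.83% in the widest, and X lies above the autosomes at each point.

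Matches to the PRDM9Cst matrix were common at peak-negative sites, though less so than at peak-positive ones. On the chromosomes not used for learning, 2037 of 3029 peak-negative sites had a match (67.2%, interval 65.5 to 68.9%), against 2520 of 3089 peak-positive sites (81.6%, 80.2 to 82.9%). Over all RJ2 DMC1 sites there the share was 71.8%, and over B6 DMC1 sites, where the threshold was set, 5%. The odds ratio of peak-negative over peak-positive sites was 0.464 (0.412 to 0.522, Fisher's exact adjusted p = 1.96e-37). This matrix was learned at peak-positive sites, and with one learned at peak-negative sites the odds ratio was 0.514 (0.457 to 0.578). With the first matrix it was 0.703 for a search of 200 bp and 0.389 for 1000 bp. Unmarked sites had fewer matches than peak-negative sites (787 of 1324, 59.4%, odds ratio 1.40 with interval 1.23 to 1.60, Fisher's exact adjusted p = 1.73e-06). Median scores were 13.9 bits at peak-negative, 16.0 at peak-positive and 13.3 at unmarked sites. Of the peak-negative sites, 796 (26.3%) scored above the median of peak-positive sites.

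The sequence learned from peak-negative sites was nearly that of the PRDM9 peaks. A matrix learned anew on the peak-negative sites of odd-numbered autosomes, with no PRDM9 interval used, started from the same word of 8 bases and read TGNCTNGGNNTNTGNCTNTT. Its base shares differed from those of the first matrix by a fraction of 0.0791 at most over the 32 columns. At matches on the other chromosomes, the guanine at position 2 and the thymine at position 13 of the consensus were kept by 95.2% and 94.99% of peak-negative matches. Peak-negative matches kept thymine at position 5 in 73.7% of cases, a difference of -8.10 percentage points from peak-positive matches, and adenine, the leading base, at position 9 in 38.1%, a difference of 9.92. They kept 10.2 ± 1.17 of the 14 spelled-out bases (SD, 2037 sites), against 10.4 ± 1.24 in peak-positive matches (2520 sites). These last values share the threshold that both sets passed.

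Matches sat near the DMC1 centre in both groups. The distances that follow are bounded by the search, which covered the central 400 bp only. The median distance was 64 bp at peak-negative and 59 bp at peak-positive sites, and 71.5% of peak-negative matches (interval 69.5 to 73.5%) lay within 100 bp, against 74.8% of peak-positive matches (73.1 to 76.5%). Per 50 bp, peak-negative sites had matches at 14.8% in the bin just right of the centre, peak-positive sites at 17.6%, and B6 DMC1 sites at 0.636%. In the bin just left of it the shares were 13.4%, 18.9% and 0.623%. By DMC1 width, 68.7% of peak-negative sites had a match in the narrowest quintile and 62.3% in the widest, and 77.6% and 80.7% of peak-positive sites did.

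**Figure D3:**
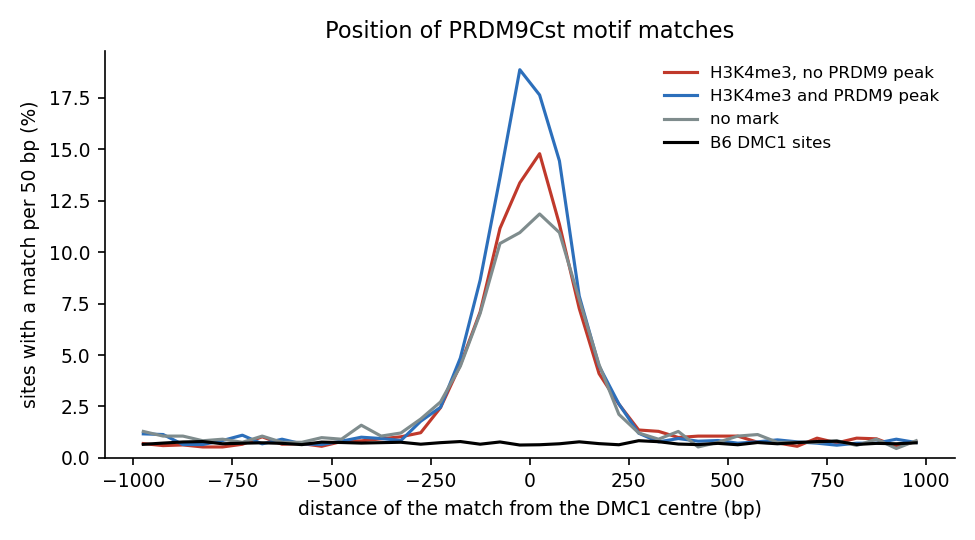
Percent of sites with a match of the PRDM9Cst matrix centred in each 50 bp (vertical axis) by distance from the DMC1 centre in bp (horizontal axis), for peak-negative, peak-positive and unmarked RJ2 sites of the test chromosomes and for all B6 DMC1 sites. The peak-negative curve rises to 14.8% beside the centre, below the peak-positive curve and far above the 0.636% of B6 sites.

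The 3 measures were also crossed. On even-numbered autosomes, sites not above the median in H3K4me3 width (1106 bp), DMC1 width (1726 bp) and motif score (14.96 bits) lacked a PRDM9 peak in 887 of 1092 cases (81.2%, interval 78.8 to 83.5%). Of the sites above the median in all 3, 131 of 1166 lacked one (11.2%, 9.48 to 13.2%). Where H3K4me3 was the only measure above the median the share was 41.5%, where DMC1 width was it was 73.2%, and where the motif score was it was 70.5%. In 1 logistic model over 6118 sites with 6 terms, the odds of lacking a peak were multiplied by 0.169 per SD of H3K4me3 width (0.152 to 0.188), 0.725 per SD of motif score (0.676 to 0.777) and 0.776 per SD of DMC1 width (0.719 to 0.838). GC content of the central 400 bp gave 0.532 per SD (0.496 to 0.571).

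**Figure D4:**
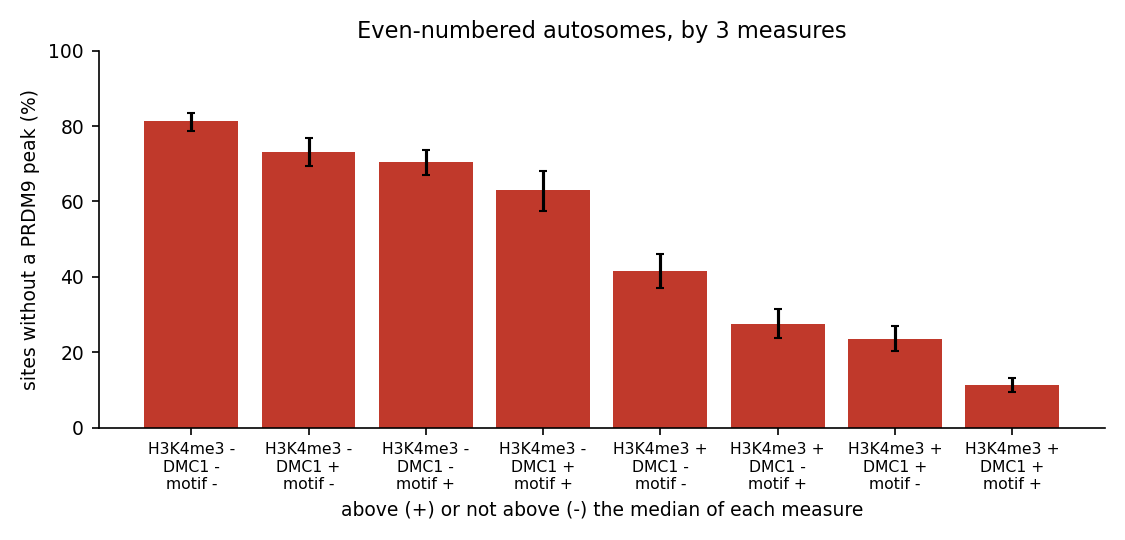
Percent of H3K4me3-marked DMC1 sites of even-numbered autosomes that lack a PRDM9 peak (bars, with 95% Clopper-Pearson intervals), for the 8 combinations of H3K4me3 width, DMC1 width and motif score above (+) or not above (-) their medians. The bars run between 81.2% with all 3 below and 11.2% with all 3 above, and the 4 bars with wide H3K4me3 are the lowest.

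On X, H3K4me3-marked sites lacked a PRDM9 peak more often than on any autosome. Males carry a single X, and the part of copy number in this difference was not tested. Of 437 marked sites on X, 321 lacked a peak (73.5%, interval 69.1 to 77.5%), and on the 19 autosomes the share was 43.6 to 51.8%. The share of sites on X was 5.44% among peak-negative (interval 4.87 to 6.04%) and 1.82% among peak-positive sites (1.503 to 2.17%, odds ratio 3.11 with interval 2.51 to 3.85, Fisher's exact adjusted p = 2.31e-27). With the widest 50% of the PRDM9 list alone that odds ratio was 14.6 (8.41 to 25.4). Over all RJ2 DMC1 sites the share on X was 6.01%, near that of peak-negative sites, and among unmarked sites it was 20.2%. Of the 913 DMC1 sites on X, 35.2% were peak-negative, 12.7% peak-positive and 48.8% unmarked, against 39.1%, 43.9% and 12.3% on autosomes. Peak-negative sites of X had a median DMC1 width of 1778 bp and a median H3K4me3 width of 735 bp, and those of autosomes had 1626 bp and 907 bp. Stratified by H3K4me3 width the odds ratio for X was 2.20 (1.68 to 2.87), and stratified by DMC1 width it was 4.79 (3.81 to 6.03). On X 69.5% of peak-negative sites had a motif match (223 of 321), against 89.7% of peak-positive sites (104 of 116).

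**Figure D5:**
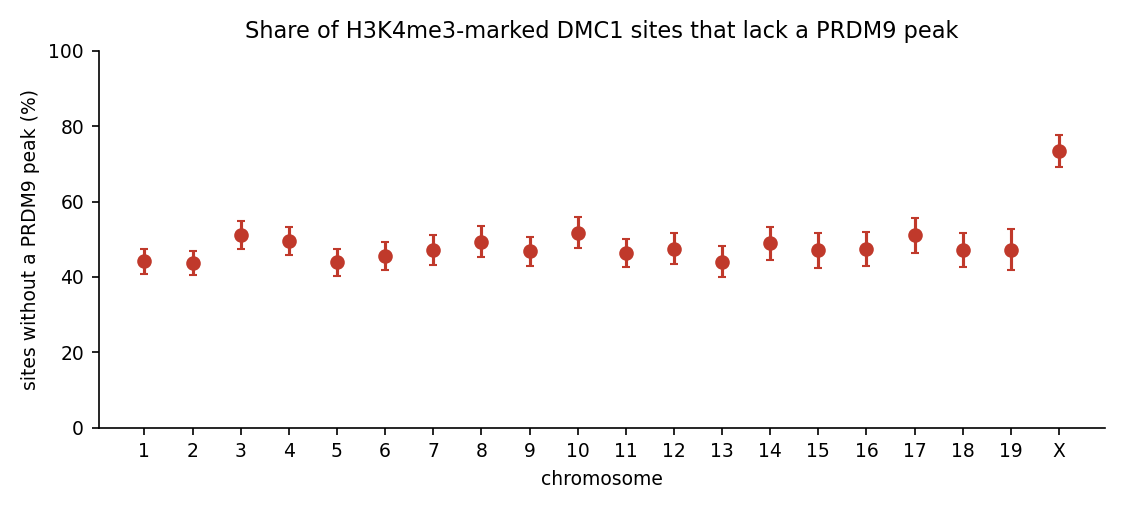
Percent of H3K4me3-marked DMC1 sites that lack a PRDM9 peak on each chromosome (points, with 95% Clopper-Pearson intervals). The autosomes lie between 43.6% (chromosome 2) and 51.8% (chromosome 10), and X at 73.5%.

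Along autosomes, the proximal 10 Mb held a larger share of peak-negative than of peak-positive sites. It held 341 of 5580 peak-negative (6.11%) and 270 of 6271 peak-positive sites (4.31%, odds ratio 1.45 with interval 1.23 to 1.70, Fisher's exact adjusted p = 1.98e-05), and 10.2% of unmarked sites. Over all autosomal DMC1 sites the share was 5.77%, inside the interval of the peak-negative sites (5.50 to 6.77%). The distal 10 Mb held 9.18% of peak-negative and 9.19% of peak-positive sites (odds ratio 0.999, interval 0.882 to 1.13). In windows of 10 Mb with at least 20 marked sites, the peak-negative share had a median of 46.9% over 242 windows, with 22.9% at the lowest (chromosome 5, 40 to 50 Mb) and 86.5% at the highest (chromosome 14, 110 to 120 Mb). The last held 32 peak-negative sites and 5 peak-positive ones.

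Peak-negative sites were poorer in GC than peak-positive sites, and more of them had under 90% unique words. The median GC content of the central 400 bp was 42.25% at peak-negative and 44.25% at peak-positive sites. It passed the list's median of 43.5% at 41.7% of peak-negative and 55.3% of peak-positive sites (odds ratio 0.579, interval 0.539 to 0.621, Fisher's exact adjusted p = 1.65e-50). Under 90% of the words of 32 bases in the centre were unique in mm9 at 872 peak-negative sites (14.8%, interval 13.9 to 15.7%), against 633 peak-positive sites (9.91%, 9.19 to 10.7%, odds ratio 1.57, Fisher's exact adjusted p = 8.22e-16). At unmarked sites it was 335 (15.2%, against peak-negative sites, Fisher's exact adjusted p = 0.819), and over all RJ2 DMC1 sites 12.8%. The median share of unique words was 100% at peak-negative and at peak-positive sites. The peaks were called from uniquely mapped reads, and the part of this in the missing PRDM9 peaks was not tested.

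The share of sites inside genes was compared next. Of peak-negative centres 3128 lay inside a gene (53.0%, interval 51.7 to 54.2%), 2881 of them in introns and 247 in exons, and of peak-positive centres 52.4% did (odds ratio 1.02, interval 0.953 to 1.10, Fisher's exact adjusted p = 0.703). With the widest 50% of the PRDM9 list alone the direction turned, with an odds ratio of 0.900 (0.833 to 0.972, Fisher's exact adjusted p = 0.00864). Over all RJ2 DMC1 sites 52.3% lay inside a gene. Of unmarked sites 47.8% did, fewer than of peak-negative sites (odds ratio 1.23 with interval 1.12 to 1.36, Fisher's exact adjusted p = 5.65e-05). Within 1 kb of a transcription start lay 184 peak-negative (3.12%) and 253 peak-positive sites (3.96%, odds ratio 0.780 with interval 0.643 to 0.946, Fisher's exact adjusted p = 0.0220). At 5 kb that odds ratio was 0.958 (0.871 to 1.05). Within 1 kb the share was 4.08% over all RJ2 DMC1 sites and 3.67% over unmarked sites (against peak-negative sites, Fisher's exact adjusted p = 0.332). Sites on common H3K4me3, a mark that is also found at promoters, were left out of all 3 groups, so these shares are partly set by the rule.

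Peak-negative sites were found in 2437 of 37273 annotated genes, and 1894 genes held a single one. Of protein-coding genes, 10.2% held a peak-negative site and 10.9% a peak-positive one. The most were in the gene model Gm20388 on chromosome 8, 4.43 Mb long, with 9 peak-negative and 17 peak-positive sites. Gpc5 and Gpc6, neighbouring genes for glypicans (cell-surface heparan sulfate proteoglycans) on chromosome 14, held 8 peak-negative sites against 0 peak-positive ones, and 7 against 1. Ctnna3, the gene of an alpha-catenin, and Lrp1b, of the LDL receptor family, held 8 against 2 each. These genes were picked for most peak-negative sites, with ties going to fewer peak-positive ones. Their contrast is thus partly set by the choice and is given as a description. Of 62 listed genes of meiotic recombination, 53 are in the annotation, 7 held 9 peak-negative sites and 6 held 7 peak-positive ones. A peak-negative site was thus in 13.2% of these genes (interval 5.48 to 25.3%), against 10.2% of all 22367 protein-coding genes. The peak-negative sites were 2 in introns of Tex11, an X-linked synapsis gene, 2 in introns of Hormad2, an axis gene, and 1 each in introns of Smc1b (meiotic cohesin), Hfm1 (a crossover helicase), Hsf2bp (a partner of BRCA2) and Cdyl (a chromodomain protein). The last was in a coding exon of Ehmt2, the gene of the H3K9 methyltransferase G9a, on chr17:35046868-35048559.

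Lists of other genotypes rarely met either group. A B6 DMC1 interval lay at the centre of 61 peak-negative (1.03%, interval 0.791 to 1.32%) and 57 peak-positive sites (0.892%, Fisher's exact adjusted p = 0.678), against 1.90% of all RJ2 DMC1 sites. Prdm9KO PRDM9 intervals met 6 peak-negative (0.102%) and 5 peak-positive sites (0.0783%, Fisher's exact adjusted p = 0.921), against 0.125% of all RJ2 DMC1 sites. B6-specific H3K4me3 met 1 peak-negative and 0 peak-positive sites, and 0.0658% of all RJ2 DMC1 sites. Both groups lie on RJ2-specific H3K4me3 by rule, so that overlap was largely set in advance. B6 and Spo11KO PRDM9 intervals met 0 of 5906 peak-negative sites (Clopper-Pearson upper limit 0.0624%) and 0 of 6387 peak-positive sites (0.0577%). Over all RJ2 DMC1 sites the shares were 0.0329% and 0.0790%. Both lists are of PRDM9Dom2, while RJ2 expresses PRDM9Cst. The Spo11KO overlap therefore cannot tell whether PRDM9Cst binds these sites without SPO11. The authors had removed PRDM9 peaks found in both strains and those over Prdm9KO peaks before deposit. The overlaps with B6 and Prdm9KO PRDM9 intervals are bounded by that step, and a peak removed so counts here as no peak.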

How the data were processed

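In all, 9 lists of peak intervals from ChIP-seq of B6, RJ2, Prdm9KO and Spo11KO testes were used. The authors mapped reads to mm9 with Bowtie, Bowtie2 or, for DMC1, a modified BWA, kept unique reads for PRDM9 and DMC1, called peaks with MACS, and used the irreproducible discovery rate to choose PRDM9 and DMC1 peaks. H3K4me3 peaks were those called in each of 3 sets of reads. The deposited lists hold positions without score, count or signal. The sequence and the GENCODE annotation used are of the same build.

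DMC1 sites were grouped by overlap of their central 400 bp. The group, gene list and tests were chosen with earlier results of these data known. Shares were compared by two-sided Fisher's exact test with Benjamini-Hochberg adjustment over 24 tests, and contrasts between strains by Zelen's exact test over 3 measures, and odds ratios carry 95% intervals. The motif matrix was made by expectation maximisation over 50 rounds, with a pseudocount of 0.5 per base. Sites named were the widest intervals, the highest motif scores (at most 1 per chromosome, none on chromosome 18), those nearest the PRDM9 threshold, the 5 genes with most sites, and genes of a meiotic list. The sites at the H3K4me3 threshold and the tandem word were added after the data were seen. Repeat masking was replaced by the uniqueness of words of 32 bases, chosen after seeing the files, since the sequence carries no masking. Scripts were tested on simulated data. The tools were Python 3.11.15 with SciPy 1.17.1, pandas 2.3.3, numpy 2.4.6, matplotlib 3.10.9 and statsmodels 0.14.6. H3K36me3 was not analysed here.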

Additional observations from a re-analysis of the deposited data

Results flagged for a closer look

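In B6 the same rule gave 4319 sites without a PRDM9 peak among 5967 marked sites (72.4%), against 5906 of 12293 in RJ2 (48.0%). The contrast between sites without and with a PRDM9 peak was set beside that of RJ2 in 3 measures. The tests count sites of 1 pooled list per strain, with 1 H3K4me3 library each, so they compare these lists and not the strains. For an H3K4me3 interval wider than the list's median, the odds ratio was 0.121 in RJ2 and 0.213 in B6, and their ratio was 0.571 (Zelen's exact test, adjusted p = 1.13e-06). For a place on the X chromosome, the odds ratio was 3.11 in RJ2 and 1.95 in B6, and their ratio of 1.60 did not pass (Zelen's exact test, adjusted p = 0.0603), while an approximate test run before the exact one gave an adjusted p of 0.0494. For a wide DMC1 interval the ratio was 1.08 (exact adjusted p = 0.378). The B6 PRDM9 list holds 2601 intervals and the RJ2 list 10121, and their part in these differences was not tested.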

How the results depend on the processing

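Of 127 values under other settings, 10 were counts of peak-negative sites, which have neither direction nor test. In all, 120 of the 127 were labelled unchanged, 9 of them such counts. The odds ratios among the 120 kept their direction and side of the threshold. The number of peak-negative sites was 5034 to 8609 under the other settings, and 2297 with the widest 50% of the DMC1 list alone. The odds ratio for a transcription start lost its call with 200 bp of H3K4me3 required (0.814), in the widest 50% of the DMC1 list (0.812) and at 5 kb (0.958). For genes it was 0.900 with the widest 50% of the PRDM9 list, where it turned and passed the test (Fisher's exact adjusted p = 0.00864). For the distal 10 Mb it was 1.01 with a centre of 200 bp and 1.01 with 200 bp of H3K4me3, and was not called under any setting. The causes were not tested. Outside the joint model, whose terms for widths and motif are per SD, the odds ratio was 0.0839 to 0.149 for H3K4me3 width, 0.287 to 0.659 for DMC1 width, 0.389 to 0.703 for the motif and 2.20 to 14.6 for X, and the joint model gave 1.97 for X. The settings with H3K4me3 strata, without sites under 90% unique words and with a joint model were added after seeing the data, as was the use of words. No paired analysis was possible because the lists pool the replicates, and for the same reason no replicate could be left out. Shares of repeat-masked bases were not run.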

Other observations

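Tandem copies of the 6-base unit TGTGCC were seen at 4 of the 6 peak-negative sites picked above by motif score. They were then searched as TGTGCCTGTGCC on either strand of every centre. The word was at 15 peak-negative sites (0.254%, interval 0.142 to 0.419%), 19 peak-positive sites (0.297%, odds ratio 0.853 with interval 0.433 to 1.68, Fisher's exact adjusted p = 0.732) and 11 unmarked sites (0.498%, Fisher's exact adjusted p = 0.238), and at 5 of 14774 B6 DMC1 sites (0.0338%). A median of 72.9% of words of 32 bases were unique at the 15 peak-negative sites, against 88.3% at the 19 peak-positive and 50.9% at the 11 unmarked sites. The tandem word was at 8 of the 50 highest-scoring peak-negative sites, and at 8 of the 100 highest. It was first noticed among top-scoring sites. On the chromosomes not used for learning, all 31 DMC1 sites with the word had a motif match. Its count among top scorers was thus largely set in advance and is given as a description. Top-scoring peak-positive sites were not compared.

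In 242 autosomal windows of 10 Mb, the peak-negative share and the mean GC content of the marked sites had Spearman's rho of -0.24 and Pearson's r of -0.23, a description over windows whose sites share libraries and base composition. Single windows did not follow one order. The highest peak-negative share, 86.5% on chromosome 14 where Gpc5 and Gpc6 lie, had a median GC content of 39%, the next, 71.4% on chromosome 12, had 44.75%, and the lowest, 22.9% on chromosome 5, had 40.75%.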
